A study of Mus musculus with 16 samples.

Results

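The glutathione S-transferases are described here by 10 mouse genes, Gsta2, Gsta3, Gsta4, Gstm1, Gstm2, Gstp1, Gstt1, Gsto1, Mgst1 and Mgst3, in primary podocytes with and without Tsc2. The members were chosen by name, and every non-control probe whose identifier maps to one of these symbols was taken, which gave 14 probes of the 56605 on the array (10 genes of 22917 with a matched probe). All 14 were well above background on all 16 arrays and all entered the tests. The choice was made with the untreated genotype difference of these genes known, so only their genotype difference after rapamycin is read as a test, and every member value that uses the untreated arrays is a description.

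Podocytes are the filtering epithelial cells of the kidney glomerulus, and Tsc2 encodes a brake on the growth kinase complex mTORC1, which rapamycin inhibits. The 16 samples are primary podocytes of male Jcl:ICR mice, grown out of glomeruli isolated with magnetic beads, with 4 samples a group. Tsc2Δpodocyte mice carry 2 floxed Tsc2 alleles and 1 copy of a Cre transgene that acts in podocytes, and Tsc2flox/flox mice carry the floxed alleles without Cre. Both untreated groups (Tsc2Δpodocyte, Tsc2flox/flox) came from mice 4 weeks old. Both treated groups (Tsc2Δpodocyte + Rapamycin, Tsc2flox/flox + Rapamycin) came from mice 5 weeks old, labelled as 1 week after rapamycin treatment, which the animals received by repeated injection. Arrays of mice with Cre and intact Tsc2 were not analysed here, so Cre and the loss of Tsc2 cannot be told apart. The untreated groups filled slide 1 and the treated groups slide 2, and row 1 of each slide held the Tsc2Δpodocyte samples, so treatment, age and slide cannot be told apart, nor can genotype and row. No source says that the 4 samples of a group are 4 different mice, so the p-values cover the variation among these cultures, which could be technical.

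Glutathione S-transferases join the tripeptide glutathione to reactive, mostly oily molecules, which are then pumped out of the cell and trimmed to mercapturates. The soluble enzymes fall into classes, of which alpha, mu, pi, theta and omega are among the members. The microsomal ones are unrelated membrane proteins of the MAPEG family. Many alpha, mu and pi genes are known targets of the transcription factor NRF2, which is held down by KEAP1 and binds the antioxidant response element with a small MAF partner. In the kidney, alpha class enzymes are best known from the proximal tubule.

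The promoters of 4 members are shown because the alpha gene Gsta3, the microsomal gene Mgst1 and the pi gene Gstp1 are the members with a match to one of 2 motifs, the core of that element (Gsta3, Mgst1) or a shorter relative (Gstp1), and Gsta2 has the largest genotype difference of the members without a match. The windows are the 250 bases before the RefSeq start of each gene, on the gene's own strand, 5′ to 3′, from the GRCm38.p6 table. They lie at chr1:21240335-21240584 (plus strand, Gsta3), chr9:78347146-78347395 (minus strand, Gsta2), chr6:138140277-138140526 (plus strand, the upstream one of 2 Mgst1 starts) and chr19:4037913-4038162 (minus strand, Gstp1). Capitals mark a match to TGACNNNGC, the core of the antioxidant response element, or to TGACTCA, its shorter relative, on either strand.
Gsta3: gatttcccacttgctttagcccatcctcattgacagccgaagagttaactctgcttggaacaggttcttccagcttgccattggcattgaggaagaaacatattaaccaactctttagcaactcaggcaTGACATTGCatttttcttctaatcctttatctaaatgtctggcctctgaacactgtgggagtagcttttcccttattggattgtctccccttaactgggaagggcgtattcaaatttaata
Gsta2: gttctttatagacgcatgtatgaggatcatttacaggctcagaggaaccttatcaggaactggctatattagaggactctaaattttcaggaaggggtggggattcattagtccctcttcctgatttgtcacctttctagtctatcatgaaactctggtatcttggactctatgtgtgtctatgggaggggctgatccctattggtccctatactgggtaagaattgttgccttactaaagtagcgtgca
Mgst1: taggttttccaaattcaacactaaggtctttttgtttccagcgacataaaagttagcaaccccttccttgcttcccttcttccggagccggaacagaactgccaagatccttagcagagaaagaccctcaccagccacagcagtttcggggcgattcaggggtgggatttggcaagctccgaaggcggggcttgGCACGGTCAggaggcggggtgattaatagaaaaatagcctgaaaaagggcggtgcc
Gstp1: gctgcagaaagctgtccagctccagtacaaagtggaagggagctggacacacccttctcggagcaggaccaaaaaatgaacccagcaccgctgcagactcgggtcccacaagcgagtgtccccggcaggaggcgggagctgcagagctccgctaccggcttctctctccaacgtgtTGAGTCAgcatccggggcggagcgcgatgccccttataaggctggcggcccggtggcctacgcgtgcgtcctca

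A window was found for 9 of the 10 members, with 11 windows in all, and Gsta4 had no entry. TGACNNNGC was present in 2 of the 11 member windows. In Gsta3 the match began 121 bases before the start on the gene's strand, and in the upstream Mgst1 window it began 56 bases before the start, on the opposite strand. TGACTCA was present in 1 member window, that of Gstp1, 74 bases before the start on the opposite strand, and no match of one motif overlapped the other. Of all 32851 promoter windows of this length in the table, 10.2% held TGACNNNGC and 4.46% held TGACTCA. The windows of Gsta2, Gstm1, Gstm2, Gsto1, Gstt1 and Mgst3 held neither. These letters describe the sequence alone, since no binding of a factor was measured.

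The values are the log2 of the background-subtracted spot intensity after the 75th percentile of each array was set to 0, so that 1 unit is a doubling. Levels of different probes are not comparable, and only differences between groups are set side by side. Tsc2 was lower on every Tsc2Δpodocyte array than on every Tsc2flox/flox array, for both of its probes and in both treatments (2-sided exact permutation test, p = 0.0286 each, the smallest p that 4 against 4 allow). Its log2 difference was -1.35 untreated and -0.99 after rapamycin for the probe of NM_011647, and -1.43 and -1.27 for the probe of NM_001286713. Whether these probes lie in the deleted exons was not determined. The labelled cell type was checked with 12 podocyte markers, all well above background on all 4 arrays of 3 groups, and 11 of the 12 in untreated Tsc2Δpodocyte, where Nphs1 missed on 1 array. All 10 macrophage and leukocyte markers and all 8 parietal epithelial markers met this in every group too. Being above background therefore does not tell podocytes from these cells. Between 28696 and 32918 of the 62976 spots of an array were well above background. These are bulk samples, in which fewer cells of a type and less RNA per cell cannot be told apart.

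After rapamycin, 5 of the 10 genes were still higher in Tsc2Δpodocyte than in Tsc2flox/flox podocytes: all 3 alpha genes (Gsta2, Gsta3 and Gsta4), the mu gene Gstm2 and the microsomal gene Mgst1. Their differences ran from 2.08-fold for one Mgst1 probe to 5.66-fold for Gsta2. Gstp1 of the pi class was 1.18-fold higher and did not pass, and Gstm1, Gstt1, Gsto1 and Mgst3 had log2 differences between -0.28 and 0.12 that did not pass either. By probe, 7 of 14 were called higher and 0 lower (limma, with adjusted p under 0.05 and a change of 1.5-fold or more), where 2.7% of the 27579 probes tested were called higher, 2.59% lower and 5.29% in either direction. No member was lower at an unadjusted p under 0.05 either (0 of 14, limma). The call of every probe of a gene was required for the count of 5. The model takes its spread from all 16 arrays, and fitted on the 8 treated arrays alone it called 4 of the 10 genes, without Gstm2. On the treated Tsc2Δpodocyte arrays, spots that repeat a probe 10 times varied more (median SD 0.0877 to 0.128 log2 units) than on the other arrays (0.0431 to 0.0748), and the part of this in the differences was not tested. The median log2 difference of the 14 probes was 0.64, and that of all tested probes was -0.000182. With normexp background correction 520 of 802 called probes were higher, against 744 of 1459 with the main values.

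**Figure D1:**
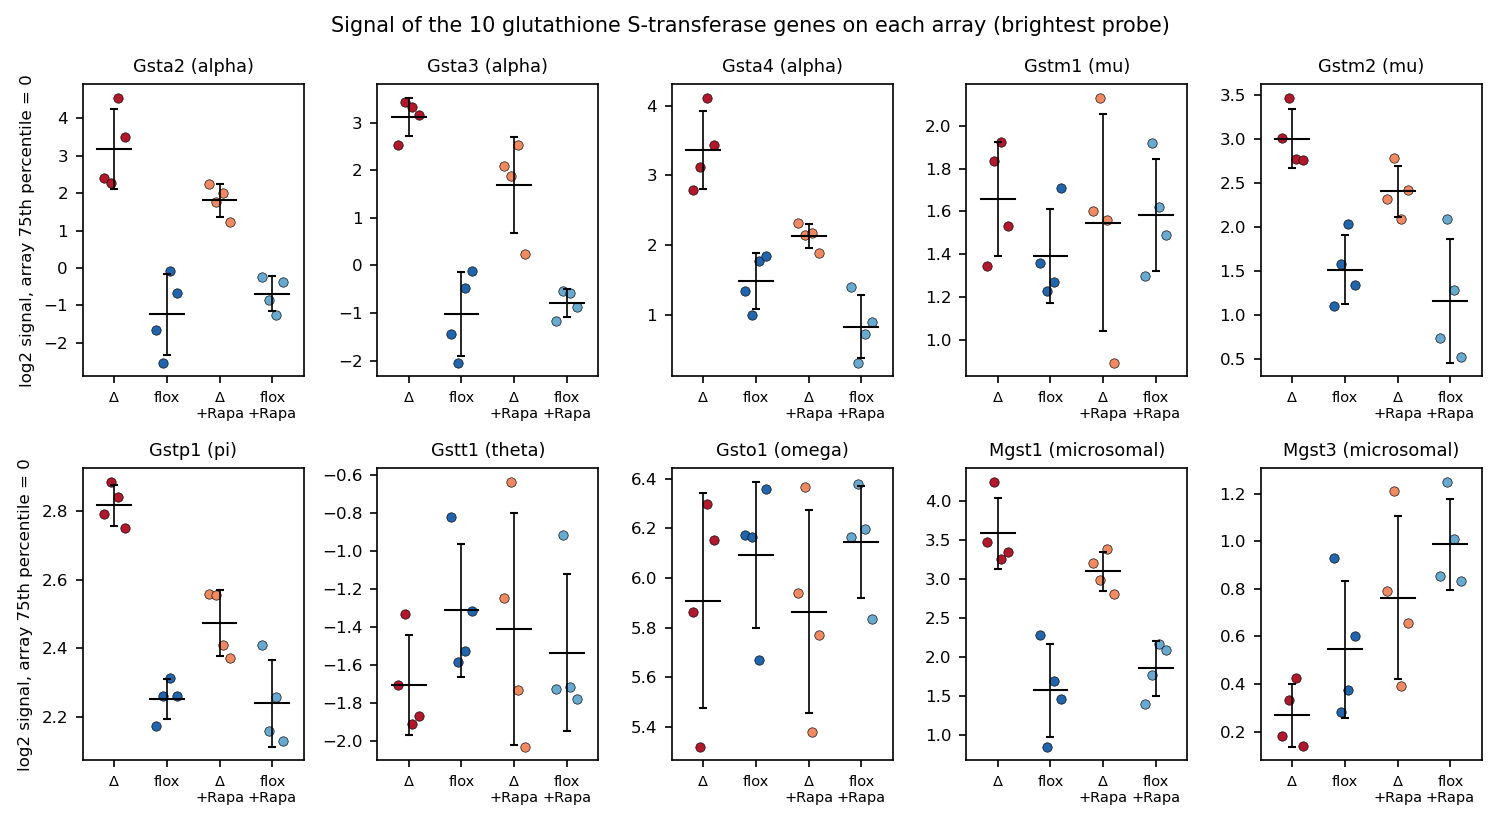
Log2 signal of the brightest probe of each of the 10 genes on every array, with the array's 75th percentile at 0 (vertical axis, a separate range for each gene). Points are single arrays of Tsc2Δpodocyte (Δ) and Tsc2flox/flox (flox), untreated or after rapamycin (+Rapa), horizontal lines are group means and bars 1 SD (n = 4). The alpha genes, Gstm2 and Mgst1 sit higher in both Δ groups, with Gstm2 meeting its control at 2.10 after rapamycin, while Gstm1, Gstt1, Gsto1 and Mgst3 overlap in both.

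The alpha genes Gsta2 and Gsta3 showed the widest genotype differences. The third alpha gene, Gsta4, differed by 1.88 untreated and 1.30 after rapamycin, beside 2.01 and 1.24 for the brighter Mgst1 probe. Gsta2 encodes an enzyme that conjugates glutathione and reduces lipid hydroperoxides. Its log2 signal was 2.41, 2.27, 4.55 and 3.50 in untreated Tsc2Δpodocyte and -1.65, -2.54, -0.08 and -0.67 in untreated Tsc2flox/flox. After rapamycin it was 2.25, 1.76, 2.01 and 1.23 in Tsc2Δpodocyte and -0.26, -0.86, -1.27 and -0.37 in Tsc2flox/flox. The genotypes did not overlap in either treatment, and the treated Tsc2Δpodocyte samples all lay below the untreated ones. After rapamycin the genotypes differed by 2.50 on the log2 scale (adjusted p = 0.0115 in limma with a standard error of 0.54, exact permutation p = 0.0286), against 4.42 (standard error 0.54) without treatment. Untreated Gsta2 varied by an SD of 1.07 and 1.08 in the 2 genotypes, and after rapamycin by 0.44 and 0.47.

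Gsta3, known in mice for disarming the epoxide of aflatoxin, was measured by 2 probes. The brighter one (NM_001077353) gave 2.54, 3.44, 3.34 and 3.16 in untreated Tsc2Δpodocyte and -1.44, -2.04, -0.47 and -0.11 in untreated Tsc2flox/flox. After rapamycin it gave 2.09, 1.87, 2.53 and 0.23 in Tsc2Δpodocyte and -1.16, -0.53, -0.58 and -0.86 in Tsc2flox/flox. The groups stayed apart, but replicate 4 of the treated Tsc2Δpodocyte samples lay 1.64 log2 units below the next one. The difference after rapamycin was 2.47 (5.54-fold, standard error 0.47, limma adjusted p = 0.00699, exact permutation p = 0.0286), and the untreated one was 4.14 (standard error 0.47). The second probe (NM_001288617) differed from the first by 0.06 log2 units on average over the 16 arrays once each was centred on its own mean. Its genotype differences were 4.08 untreated and 2.46 after rapamycin (adjusted p = 0.00683 from limma).

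Gsta4 prefers the lipid peroxidation product hydroxynonenal as its substrate. It read 2.79, 3.12, 4.12 and 3.44 in untreated Tsc2Δpodocyte and 1.34, 0.99, 1.77 and 1.85 in untreated Tsc2flox/flox. After rapamycin the values were 2.32, 2.14, 2.17 and 1.89 against 1.39, 0.31, 0.72 and 0.89. Again no control array reached a Tsc2Δpodocyte array of the same treatment. The log2 difference was 1.30 after rapamycin (standard error 0.28, 2.47-fold, adjusted p = 0.0115 from limma, exact permutation p = 0.0286) and 1.88 (standard error 0.28) untreated. Unlike Gsta2 and Gsta3, whose control means were 0.55 and 0.23 log2 units higher with rapamycin than without, Gsta4 was lower by 0.66 in treated controls (standard errors 0.54, 0.47 and 0.28).

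**Figure D2:**
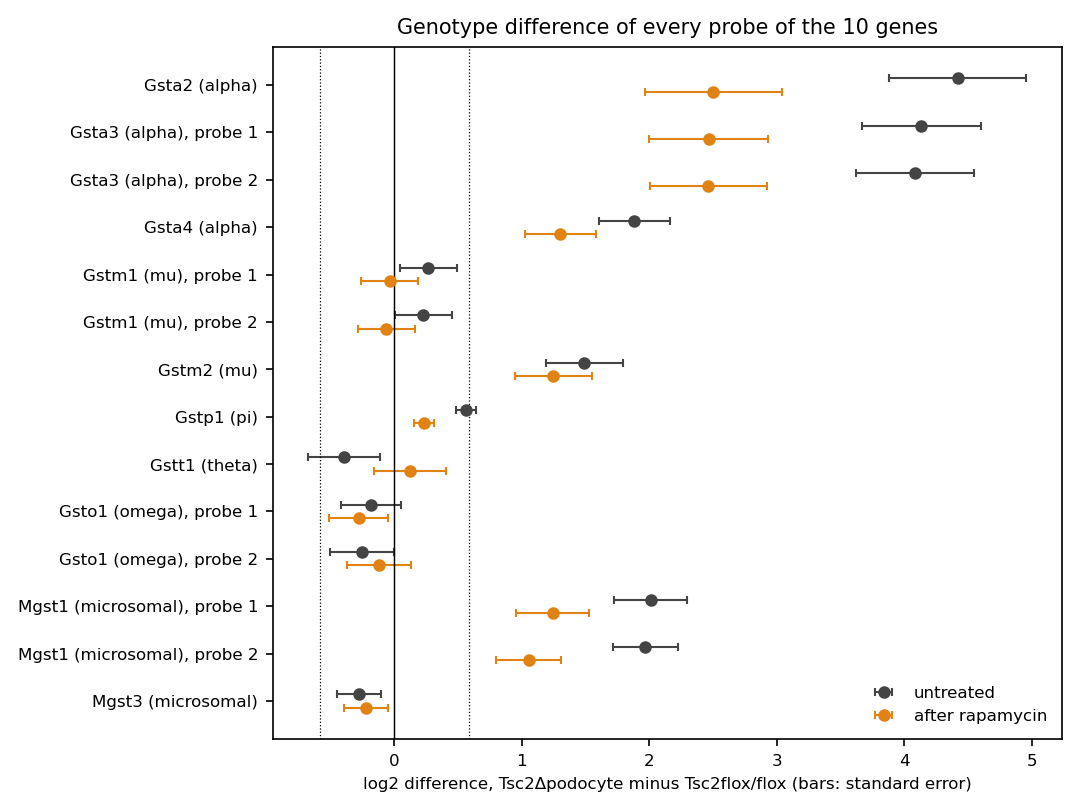
Log2 difference between Tsc2Δpodocyte and Tsc2flox/flox podocytes (horizontal axis) for each of the 14 probes, untreated (dark) and after rapamycin (orange), with bars of 1 standard error from limma and dotted lines at a fold of 1.5. The alpha probes run from 1.88 to 4.42 untreated and from 1.30 to 2.50 after rapamycin, and the theta, omega and Mgst3 probes stay between -0.39 and 0.12.

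The 2 mu members did not move alike. Gstm2 measured 3.02, 3.47, 2.77 and 2.76 in untreated Tsc2Δpodocyte and 1.11, 1.58, 2.03 and 1.34 in untreated Tsc2flox/flox. After rapamycin it measured 2.32, 2.79, 2.10 and 2.42 against 0.74, 2.10, 1.28 and 0.53. The treated groups met at 2.10, where the lowest Tsc2Δpodocyte sample and control replicate 2 were level. The difference of 1.25 after rapamycin (standard error 0.30, 2.37-fold) passed in limma (adjusted p = 0.0195), while the exact permutation p was 0.0571. The call was lost without control replicate 1 (adjusted p = 0.0520 from limma) and without control replicate 4 (0.0601), and in a fit of the 8 treated arrays alone (0.0652). The untreated difference was 1.49 (standard error 0.30).

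Gstm1, which encodes a major mu class enzyme of the mouse liver, was measured by 2 probes of the same transcript. The brighter probe gave 1.35, 1.83, 1.92 and 1.53 in untreated Tsc2Δpodocyte and 1.36, 1.23, 1.27 and 1.71 in untreated Tsc2flox/flox. After rapamycin it gave 1.60, 2.13, 1.56 and 0.89 against 1.30, 1.92, 1.62 and 1.49. The groups overlapped in both treatments, and the treated Tsc2Δpodocyte samples had the widest spread (SD 0.51). The log2 difference after rapamycin was -0.04 (standard error 0.22, limma adjusted p = 0.944), and that of the other probe was -0.06 (standard error 0.23, adjusted p = 0.895). Untreated, the differences were 0.27 and 0.23.

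Gstp1 encodes the pi class enzyme, which also binds and restrains the stress kinase JNK. It had the tightest replicates of the 10 genes, at 2.79, 2.89, 2.84 and 2.75 in untreated Tsc2Δpodocyte and 2.17, 2.26, 2.31 and 2.26 in untreated Tsc2flox/flox (SD 0.06 in each). The untreated groups lay apart although their difference was only 0.56 (standard error 0.08, 1.48-fold), just under the 1.5-fold threshold and so not called. After rapamycin it was 2.56, 2.56, 2.41 and 2.37 against 2.41, 2.16, 2.26 and 2.13. The highest control then passed the lowest Tsc2Δpodocyte sample. The difference of 0.23 (standard error 0.08) missed the threshold (adjusted p = 0.0728 from limma, exact permutation p = 0.0571).

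Gstt1 of the theta class, which acts on small halogenated molecules, overlapped between genotypes throughout. It was -1.70, -1.33, -1.91 and -1.87 in untreated Tsc2Δpodocyte and -0.82, -1.59, -1.53 and -1.32 in untreated Tsc2flox/flox. After rapamycin it was -1.25, -0.64, -1.73 and -2.03 against -1.73, -0.92, -1.72 and -1.78. Replicate 2 was the highest of both treated groups. The log2 difference was -0.39 untreated and 0.12 after rapamycin (standard error 0.28 each), and the latter did not pass (adjusted p = 0.827 from limma).

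Gsto1 of the omega class reduces oxidised ascorbate and removes glutathione from proteins. Its brighter probe measured 5.86, 5.32, 6.30 and 6.15 in untreated Tsc2Δpodocyte and 6.17, 6.17, 5.67 and 6.36 in untreated Tsc2flox/flox. After rapamycin the values were 5.94, 6.37, 5.38 and 5.77 against 6.16, 6.38, 6.20 and 5.84. Every group overlapped every other. The differences after rapamycin were -0.28 and -0.12 for the 2 probes (standard errors 0.23 and 0.25, adjusted p = 0.490 and 0.803 from limma).

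The microsomal members parted like the mu members. Mgst1, a membrane enzyme that conjugates glutathione and reduces lipid hydroperoxides, gave 3.48, 4.25, 3.26 and 3.35 in untreated Tsc2Δpodocyte and 2.29, 0.85, 1.69 and 1.47 in untreated Tsc2flox/flox with its brighter probe. After rapamycin it gave 3.21, 2.99, 3.39 and 2.82 against 1.40, 1.78, 2.17 and 2.09. No control array reached a Tsc2Δpodocyte array in either treatment. The difference after rapamycin was 1.24 (standard error 0.28, 2.36-fold, adjusted p = 0.0153 from limma, exact permutation p = 0.0286), against 2.01 untreated. The dimmer probe gave 1.05 after rapamycin (standard error 0.25, adjusted p = 0.0192 from limma) and 1.97 untreated. The call of the dimmer probe was lost without treated Tsc2Δpodocyte replicate 3 (adjusted p = 0.0561 from limma) and without treated control replicate 1 (0.0515). Without that control 3 genes were called instead of 5, with every probe passing.

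Mgst3, which handles leukotriene and peroxide substrates, was 0.18, 0.33, 0.42 and 0.14 in untreated Tsc2Δpodocyte and 0.93, 0.28, 0.37 and 0.60 in untreated Tsc2flox/flox. After rapamycin it was 0.79, 1.21, 0.39 and 0.66 against 0.85, 1.25, 1.01 and 0.83. The genotypes overlapped, and both treated means lay above both untreated means. The genotype difference after rapamycin was -0.22 (standard error 0.17, adjusted p = 0.448 from limma). The treated minus untreated difference was 0.49 in Tsc2Δpodocyte and 0.44 in Tsc2flox/flox (standard error 0.17 each).

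The untreated comparison, from which the members were known, had 7 of 14 probes called higher and 0 lower, beside 5.95% of all probes called higher and 3.95% lower. They belonged to the genes called after rapamycin, namely Gsta2, Gsta3, Gsta4, Gstm2 and Mgst1. Of the 14 probes, 8 had every Tsc2Δpodocyte array above every control array untreated (12.3% of all probes did), and 6 after rapamycin (9.72% of all probes). The probes that left that count were those of Gstm2 and Gstp1.

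The genotype difference was smaller after rapamycin than without it for every probe of the 5 called genes and for Gstp1, by 0.24 log2 units for Gstm2, 0.33 for Gstp1, 0.58 for Gsta4, 0.77 and 0.91 for Mgst1, 1.62 and 1.67 for Gsta3 and 1.92 for Gsta2. The standard errors of these changes were 0.43, 0.11, 0.39, 0.40, 0.36, 0.65, 0.66 and 0.76 in that order. The change uses the untreated arrays, whose values were known when the members were chosen, so the counts for it are a description from which nothing is read: 0 of the 14 probes met the call rule in limma (5 were negative at an unadjusted p under 0.05), beside 0.00363% of all probes. In Tsc2Δpodocyte the treated samples were lower than the untreated ones by 1.37 for Gsta2, 1.44 and 1.40 for Gsta3, 1.24 for Gsta4, 0.60 for Gstm2, 0.34 for Gstp1 and 0.49 and 0.77 for Mgst1. In Tsc2flox/flox the same probes differed by -0.66 to 0.55. These differences start from the same known untreated values, so they too are a description: 1 of the 14 probes (Gsta4) met the call rule as lower in Tsc2Δpodocyte, beside 1.12% of all probes, and 0 did in Tsc2flox/flox, beside 0.105% in either direction. Over the same arrays the median difference of 10 endothelial markers was -1.57 in Tsc2Δpodocyte and -1.63 in Tsc2flox/flox, with 0 passing in limma (6 of 10 lower in each at an unadjusted p under 0.05). Their part in the values of the transferases was not tested.

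Across arrays of one group, replicate 4 of the treated Tsc2Δpodocyte samples was the lowest for 9 of the 14 probes and the highest for 0. Replicate 2 of the treated Tsc2flox/flox samples was the highest for 9, and replicate 2 of the untreated ones the lowest for 10. These counts take both probes of Gsta3, Gstm1, Gsto1 and Mgst1. They are not set beside the same ranks over all probes, so nothing particular to the transferases is read from them. Without treated Tsc2Δpodocyte replicate 4 the same count of 5 genes was called after rapamycin.

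Of 18 other glutathione S-transferase genes, 16 had a probe and 12 were tested, each by its brightest probe. This list and the pathway and marker lists below were chosen with earlier results of these data known, so their counts and p-values are descriptions. The gene Gm10639, given below with the genes closest to Gsta3, was not among the 18. After rapamycin 1 of the 12 was higher and 0 lower in Tsc2Δpodocyte than in Tsc2flox/flox (adjusted p under 0.05 from limma at any fold). Of the 14095 genes tested, 6.2% were higher and 4.97% lower. In the lists that follow, higher and lower also compare Tsc2Δpodocyte with Tsc2flox/flox. The higher gene was Gstm6, a further mu gene, which ran from -2.07 to -1.39 in treated Tsc2Δpodocyte and from -3.26 to -2.30 in treated Tsc2flox/flox. Its log2 difference was 1.03 (standard error 0.22, limma adjusted p = 0.0106), and 1.13 untreated (adjusted p = 0.00309). A dimmer Gstm6 probe gave 0.82 after rapamycin and 0.73 untreated and passed in neither (adjusted p = 0.0799 and 0.0915 from limma).

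Untreated, 3 of the 12 were higher in Tsc2Δpodocyte (Gstp2, Gstm6 and Gstm4) and 0 lower, beside 10.3% of all genes higher and 9.2% lower. Gstp2, the pi gene next to Gstp1, was higher by 0.46 untreated (adjusted p = 0.00194 from limma) and by 0.20 after rapamycin (adjusted p = 0.136). Gstm4 was higher by 0.62 untreated (adjusted p = 0.0241 from limma) and by 0.28 after rapamycin (adjusted p = 0.330). The omega gene Gsto2 had the most negative difference after rapamycin, -0.96, which missed the threshold (adjusted p = 0.0865 from limma). Mgst2 differed by 0.88 untreated (adjusted p = 0.0795 from limma) and by 0.01 after rapamycin. The median log2 difference of the 12 was 0.41 untreated and 0.10 after rapamycin, with medians over all genes of -0.01 and 0.01.

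Of 9 genes of glutathione synthesis and recycling, 4 were higher in Tsc2Δpodocyte and 0 lower in both treatments. Of all genes, 10.3% were higher and 9.2% lower untreated, and 6.2% and 4.97% after rapamycin. The 4 were Slc7a11, the cystine importer, Gclc and Gclm, the catalytic and modifier subunits of glutamate-cysteine ligase, and Gss, glutathione synthetase. After rapamycin Slc7a11 was higher by 2.10 (standard error 0.38, adjusted p = 0.00569 from limma), Gclm by 0.87 (adjusted p = 0.00873), Gclc by 0.72 (adjusted p = 0.00668) and Gss by 0.49 (adjusted p = 0.0207). Untreated they were higher by 2.61, 1.22, 0.66 and 0.82. A second Gss probe gave 0.32 after rapamycin and did not pass (adjusted p = 0.207 from limma).

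Of 5 glutathione peroxidases tested 0 passed after rapamycin in limma (1 was higher and 1 lower at an unadjusted p under 0.05). Untreated 1 of the 5 was higher in Tsc2Δpodocyte, beside 10.3% of all genes: Gpx3, the secreted plasma enzyme, by 1.18 (adjusted p = 0.0105 from limma). Gpx3 gave 0.46 after rapamycin (adjusted p = 0.316 from limma). Of 13 genes of conjugate export and mercapturate processing, 1 was higher in treated Tsc2Δpodocyte than in treated Tsc2flox/flox, near the 6.2% of all genes. It was the conjugate pump Abcc1, by 0.46 (adjusted p = 0.0367 from limma). Untreated 3 of the 13 were higher in Tsc2Δpodocyte, beside 10.3% of all genes: Abcc1 by 0.61 (adjusted p = 0.00562 from limma), the dipeptidase Dpep2 by 1.42 (adjusted p = 0.00502) and the aminoacylase Acy3 by 0.69 (adjusted p = 0.0154). Dpep2 was well above background on only 1 of the 4 untreated control arrays. Of the 3 other MAPEG genes, Ptges, Alox5ap and Ltc4s, 0 passed in either treatment in limma (2 were higher untreated at an unadjusted p under 0.05, and 0 after rapamycin).

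Of 8 genes of NRF2 and its partners, 2 were higher and 2 lower in treated Tsc2Δpodocyte than in treated Tsc2flox/flox. Of all genes, 6.2% were higher and 4.97% lower. Nfe2l2, which encodes NRF2, was higher by 0.49 (adjusted p = 0.0101 from limma) and Sqstm1, which encodes the autophagy receptor that binds KEAP1, by 0.72 (adjusted p = 0.0119). Bach1, a repressor at antioxidant response elements, was lower by 0.57 (log2 difference -0.57, adjusted p = 0.0305 from limma) and the small MAF gene Maff by 0.40 (-0.40, adjusted p = 0.0280). Untreated, Nfe2l2 (0.33, adjusted p = 0.0397 from limma) and Sqstm1 (1.11, adjusted p = 0.000447) were higher in Tsc2Δpodocyte and 0 genes lower, beside 10.3% of all genes higher and 9.2% lower. Over the 50 tested genes of these 6 lists, the change of the genotype difference with rapamycin passed for 0 in limma (4 at an unadjusted p under 0.05, smallest adjusted p = 0.623), so a gene that passed in one treatment alone is not shown to differ between treatments.

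**Figure D3:**
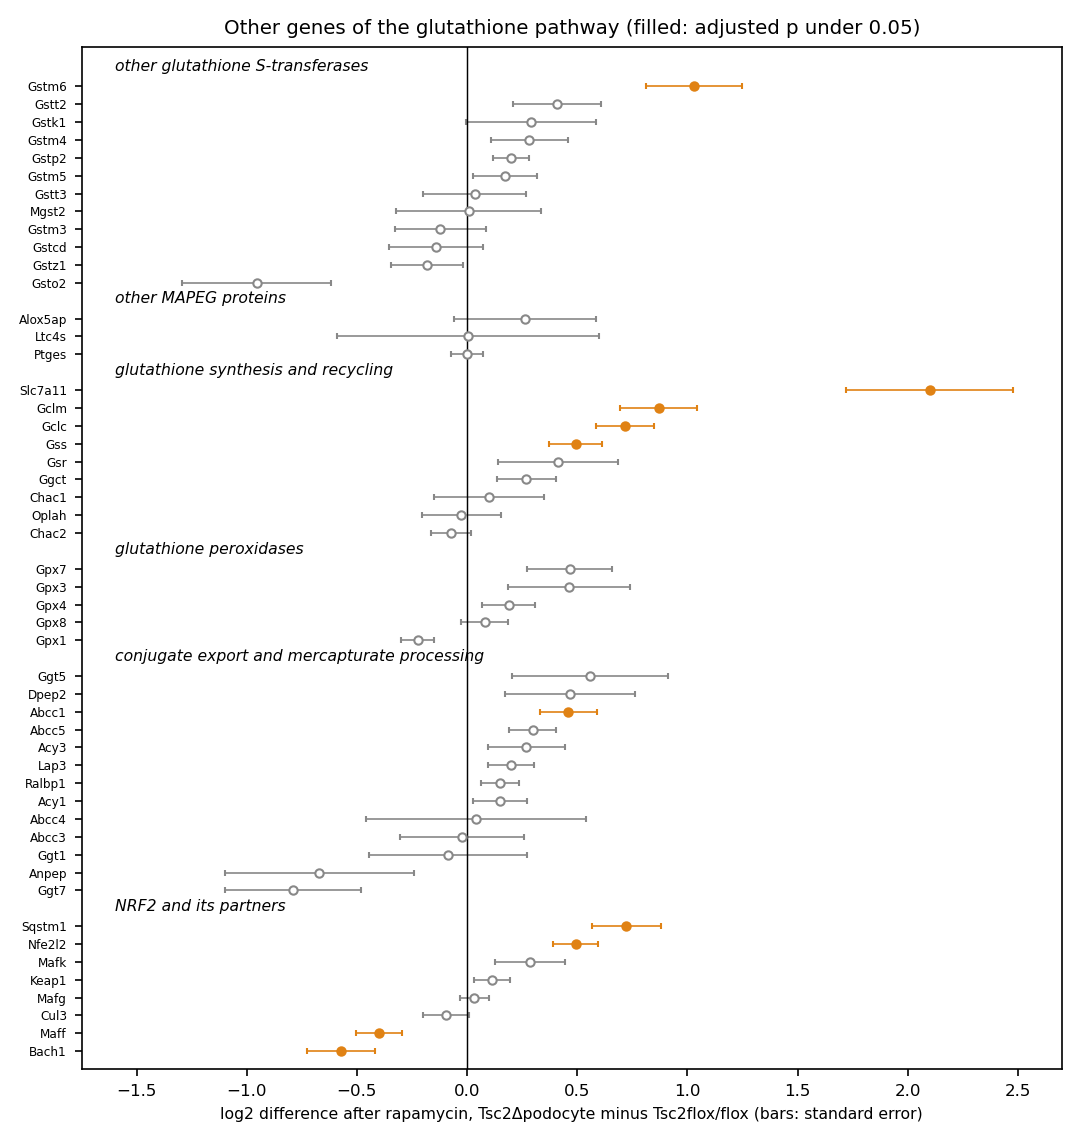
Log2 difference after rapamycin between Tsc2Δpodocyte and Tsc2flox/flox podocytes (horizontal axis) for each tested gene of 6 lists, by its brightest probe, with bars of 1 standard error. Filled orange points passed an adjusted p under 0.05. Slc7a11 has the highest value, 2.10, and Gstm6 is the one filled point among the 12 other glutathione S-transferases.

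The 5 genes whose pattern was closest to that of the brighter Gsta3 probe were Xdh, Serpinb1b, Gsta2, Gm10639 and 1810065E05Rik. Closeness was the mean absolute difference between values centred on each probe's own mean, over 16 arrays and among 20370 other probes with a gene, and it ran from 0.54 for Xdh to 0.57 for 1810065E05Rik. Gsta3 itself lay 1.72 from its mean on average. Xdh encodes xanthine dehydrogenase, the last enzyme of purine breakdown, and Serpinb1b an intracellular protease inhibitor. Their untreated genotype differences were 4.40 and 3.56, and after rapamycin 2.32 and 1.39. Genes picked for closeness to Gsta3 on these arrays share its genotype pattern by that choice, so their differences are a description. Gm10639 lies between Gsta1 and Gsta2 on chromosome 9, and its probe followed the Gsta2 probe to within 0.06 log2 units on average over the 16 arrays. Its genotype differences were 4.46 untreated and 2.54 after rapamycin. The Gstp1 and Gstp2 probes also differed by 0.06 on average, but Gstp1 varied much less. Its group means ran from 2.24 to 2.82, and those of Gsta2 from -1.24 to 3.18, so the 2 distances are not alike. Probe sequences were not used here, so whether a probe also captures RNA of such a near copy was not determined, and the values of Gsta2, Gstp1 and the mu genes carry that uncertainty.

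**Figure D4:**
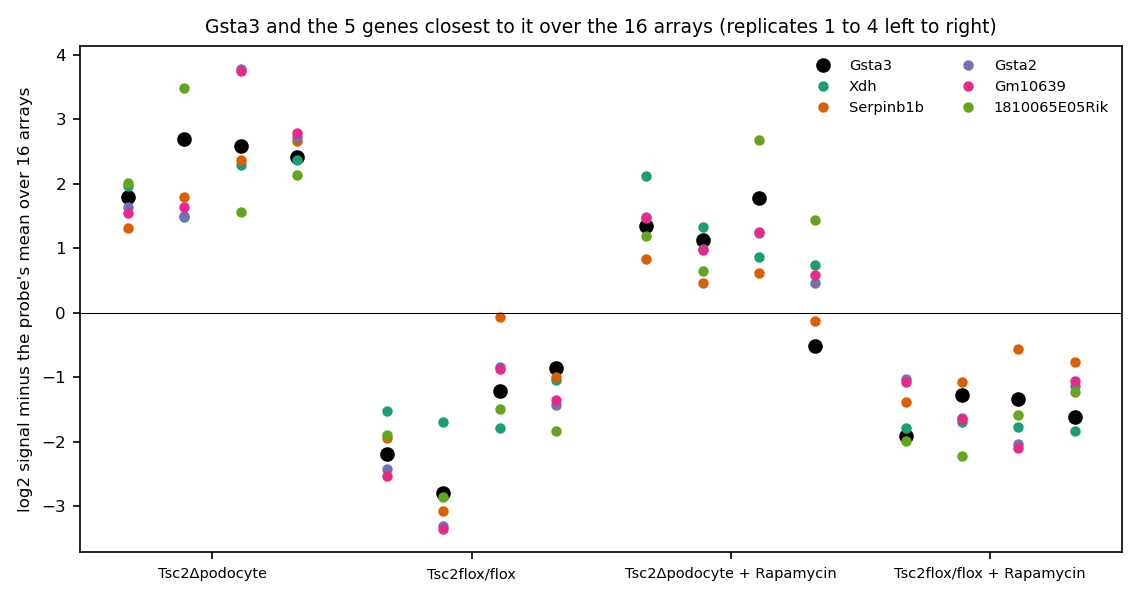
Log2 signal minus each probe's mean over the 16 arrays (vertical axis) for Gsta3 and the 5 genes closest to it, with the 4 replicates of each group side by side. All 6 genes lie above 0 on every untreated Tsc2Δpodocyte array and below 0 on every control array, and on treated Tsc2Δpodocyte replicate 4 Gsta3 lies at -0.52 and Serpinb1b at -0.13. The 5 genes were picked for closeness on these same arrays, so the shared pattern follows from the choice.

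Markers of other kidney cells were measured on the same arrays. Of 14 proximal tubule markers, 3 were well above background on all 4 arrays of both Tsc2Δpodocyte groups and 4 in both control groups. Slc34a1, Slc5a12, Slc22a6, Slc13a3, Kap and Acsm2 were above it on none of the treated arrays. The summed signal of the list, in multiples of the array's 75th percentile, was 0.973 to 1.13 in treated Tsc2Δpodocyte and 1.64 to 2.67 in treated Tsc2flox/flox, and 0.972 to 1.85 against 1.72 to 2.20 untreated. Of the 4 proximal tubule markers tested after rapamycin 2 were lower and 0 higher in limma, Lrp2 by -1.84 (adjusted p = 0.00516) and Cyp4b1 by -1.56 (adjusted p = 0.0274). Of all genes tested, 4.97% were lower and 6.2% higher after rapamycin. Untreated, 2 of the 4 were lower and 0 higher (smallest adjusted p = 0.00489 from limma), beside 9.2% of all genes lower and 10.3% higher.

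Of 8 parietal epithelial markers 2 were lower in treated Tsc2Δpodocyte than in treated Tsc2flox/flox in limma, Pax8 (log2 difference -1.14) and Cdh6 (-1.90). The summed signal of the list ranged over 94.2 to 325 in treated Tsc2Δpodocyte and 118 to 381 in treated Tsc2flox/flox. The shares of all genes, for these and the counts that follow, were 6.2% higher and 4.97% lower after rapamycin. All 8 were well above background in every group. The endothelial sum (8 of 10 markers above background on all arrays of each treated group) was 5.29 to 8.62 and 5.60 to 13.3, against 9.65 to 68.1 and 7.74 to 89.6 untreated, and the macrophage and leukocyte sum (10 of 10) 12.8 to 17.6 and 12.6 to 19.1, in the same order. The sum of 8 mesangial and smooth muscle markers (8 and 7 of 8 above background) was 654 to 749 and 573 to 686. Of these 8, 1 was higher in treated Tsc2Δpodocyte than in treated Tsc2flox/flox, Des, by 1.28 (adjusted p = 0.00873 from limma). The sum of 8 other tubule markers, of which Umod, Slc12a1, Slc12a3, Calb1 and Atp6v1g3 were not above background on treated arrays, was 0.144 to 0.181 and 0.128 to 0.240. The podocyte sum was 148 to 279 and 151 to 189. Of the 12 markers 1 was higher in treated Tsc2Δpodocyte than in treated Tsc2flox/flox, near the 6.2% of all genes: Podxl, by 1.18 (adjusted p = 0.0372 from limma). Untreated 1 of the 12 podocyte markers was lower and 0 higher (adjusted p = 0.0400 from limma), near the 9.2% of all genes that were lower. Untreated, 3 of the 8 mesangial and smooth muscle markers were higher in Tsc2Δpodocyte in limma (Des, Itga8 and Cnn1) and 2 of the 10 macrophage and leukocyte markers (Cd68 and Cd14), while 3 of the 8 parietal epithelial markers were lower (Pax8, Cdh6 and Cd24a). Of all genes, 10.3% were higher and 9.2% lower untreated. The part of these markers in the genotype differences of the transferases was not tested.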

How the data were processed

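RNA of 16 primary podocyte cultures was hybridised to one-colour Agilent mouse arrays. The scanner files deposited by the authors, made with Agilent Feature Extraction 10.7.3.1 per the labels, hold a background-subtracted intensity for each of 62976 spots (3671 controls). The authors also deposited a table of log2 values, shifted per array and centred per probe (column medians -0.1549 to 0.2394, r of at least 0.99973 with the values used here). Here the log2 intensities of each of 56605 probes were averaged without outlier spots (1344 spots, 34 missing values, none saturated), and each array was shifted so that its 75th percentile (an intensity of 348.6 to 467.7) became 0 on the log2 scale. Probes were matched to symbols by accession in the GRCm38.p6 RefSeq table (33024 probes, 22917 genes). The test took in a probe if 1 group or more had it well above background in every one of its 4 arrays (27579 probes). Each gene of a list is represented by its brightest probe.

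The 4 groups entered 1 linear model in limma (version 3.58.1, in R 4.3.3 with version 1.17.8 of data.table), with Benjamini-Hochberg adjustment over all probes. Called probes had an adjusted p under 0.05 and a change of 1.5-fold or more, and list genes were counted at the adjusted p alone. The fit was tested on simulated data. Single probes were tested by exact permutation in Python 3.11.15 with numpy 2.4.6 and pandas 2.3.3. Members, lists and alternatives were chosen with earlier results of these data known. The counts and p-values of the lists are therefore descriptions. Member results are read as a test only for the genotype difference after rapamycin, and those of the other 4 comparisons, which use the untreated arrays, are descriptions. All member probes are named, with up to 4 genes of each pathway list with the smallest p in each treatment, Tsc2, and the 5 genes closest to Gsta3. Marker genes are named where they passed or were not above background, after their values were seen. Podocyte and proximal tubule markers that passed untreated are given as counts. The number of arrays limits the precision. The alternatives were quantile normalization, normexp (offset 50, on the spots' median signal), other filters on dim probes, the deposited values, the 8 arrays compared, the methods' t-test, a trended and robust prior, a replicate block, the adjusted p alone and each array left out. Array names of genes can be old, and protein sequences were not used here. The driver of the Cre transgene is not reported here.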

Additional observations from a re-analysis of the deposited data

Results flagged for a closer look

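In each of the 56 sets of 4 arrays (14 member probes in 4 groups), the gap between the highest or lowest array and its nearest neighbour was set against the whole range. It was wide enough to single out 1 array, Gstt1 in treated Tsc2flox/flox replicate 2, at a log2 signal of -0.92 where the other 3 arrays lay between -1.78 and -1.72. Chance flags about 1 in 20 such sets. The highest treated Tsc2Δpodocyte value of Gstt1 was replicate 2 as well, at -0.64.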

How the results depend on the processing

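After rapamycin the 5 genes called with every probe were 3 without the filter on dim probes, 2 (Gsta2 and Gsta4) by the methods' t-test with adjustment, and 3 to 5 with each array left out, the lowest without Tsc2flox/flox + Rapamycin replicate 1. No member difference reversed among the called ones. Of 364 recomputed member values after rapamycin 353 kept their side of the threshold, and the 11 that lost it belonged to Gsta3 (the methods' t-test), Gstm2 and the dimmer Mgst1 probe. Gsta2, Gsta4 and the brighter Mgst1 probe kept their call in all 25 adjusted alternatives, with adjusted p of 0.00557 to 0.0412, 0.00460 to 0.0498 and 0.00933 to 0.0451 from limma or that t-test. The cause was not tested. Untreated, 5 or 6 genes were called throughout. As a description, the single gene called lower with rapamycin in Tsc2Δpodocyte became 2 with normexp or the adjusted p alone, 3 by the methods' t-test without adjustment, 0 with no filter, only the arrays compared or that t-test with adjustment, and 0 to 1 with each array left out (0 without replicate 2, 3 or 4 of Tsc2Δpodocyte or any replicate of Tsc2Δpodocyte + Rapamycin). Over all probes, the 1459 called after rapamycin became 802 with normexp, 906 without the filter, 434 by the methods' t-test with adjustment and 847 to 1680 with 1 array left out, the lowest without Tsc2flox/flox + Rapamycin replicate 3 (945 without Tsc2Δpodocyte + Rapamycin replicate 1). The 2728 untreated became 1664 by that t-test, and the 1 interaction call became 35 with normexp (with the main values, 2030 probes had an unadjusted p under 0.05). Same-numbered replicates did not pair the samples, with correlations of their deviations between -0.30 and 0.46. The replicate block left 5, 5, 0, 1 and 0 member genes called in the 5 comparisons, as without it, and 1283 probes after rapamycin. Slide could not be fitted as a block for treatment, and genotype differences lie within a slide. Signal over background limits no member, since all 14 probes were well above it on every array.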
